A study of Arabidopsis thaliana with 4 samples.

Results

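The 10 genes described here control the seed maturation programme of *Arabidopsis thaliana*. They were taken from the files by locus identifier. The activators *ABI3*, *FUS3*, *LEC1*, *LEC2*, *ABI5* and *ABI4* and the dormancy gene *DOG1* were set beside the repressors *VAL1*, *VAL2* and *PKL*. They make up 10 of the 32833 genes listed in each library. RNA had been sequenced from 14-day-old seedlings of the T-DNA line *mettl4-1* and of the wild-type accession Col-0, with 2 libraries per genotype. The T-DNA of *mettl4-1* lies in the first exon of *METTL4*, the gene of an RNA methyltransferase that acts on U2 snRNA, and the line is in the Columbia background that both groups share. The study describes 1 insertion line, although the deposited values of *mettl4-1* replicate 2 carry the name of another allele. The rescued plants of *mettl4-1* were not among the sequenced samples. Seedlings were grown on MS medium at 22 °C with 16 h of light and 8 h of dark by the labels' growth protocol. For plants used for RNA extraction, the study's methods give a slightly lower temperature and medium with sucrose. The labels' source description gives 10 and 11 h of dark for the *mettl4-1* libraries and 8 and 9 h for the Col-0 libraries. The labels do not say whether the 2 libraries of a genotype came from separate cultures, so that p-values measure only the spread between these libraries. The comparison asks how RNA levels in seedlings without full-length *METTL4* RNA differ from those of Col-0, here for the regulators of seed maturation.

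During seed maturation, storage proteins, oil body proteins and protective late embryogenesis abundant (LEA) proteins accumulate while the embryo dries and becomes dormant. *LEC1*, *LEC2*, *FUS3* and *ABI3* form the core of the network. *LEC2*, *FUS3* and *ABI3* carry a B3 domain, which recognizes the RY element of seed promoters, and *LEC1* is a subunit of the NF-Y complex. *ABI5* (a bZIP factor) and *ABI4* (an AP2-type factor) act in the response to abscisic acid (ABA), the hormone of maturation and dormancy. After germination the programme is shut down. *VAL1* and *VAL2* carry B3 domains that read the same RY element and help Polycomb complexes to silence the locus, and *PKL* is a CHD3 chromatin remodeller needed to keep embryonic genes off in seedlings. Low expression of the activators is therefore the usual state of a seedling.

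The libraries held 50862075 to 66003824 counts. A level of 3 counts, used as the floor, corresponds to 0.0450 to 0.0593 CPM, where CPM are counts scaled to 1000000 after TMM normalization. *METTL4* had 35 and 46 counts in *mettl4-1* and 355 and 413 counts in Col-0, lower in both libraries labelled *mettl4-1*. The control gene *ACTIN2* had a log2 fold change of −0.13 (adjusted p = 0.0186, edgeR). Organelle genes took 2.68% and 1.03% of the counts in *mettl4-1* replicates 1 and 2, against 0.693% and 0.713% in Col-0. Leaf and root markers fixed for the seedling were present in all libraries, with *RBCS1A* at 541864 counts or more and *PYK10* at 157416 counts or more. All 4 leaf markers were slightly lower in *mettl4-1*, with log2 fold changes of −0.33 (*LHCA1*) to −0.07 (*RCA*) and adjusted p-values under 0.05 (edgeR), none past 1.5-fold, and their part in the results was not tested. The quasi-likelihood test of edgeR was run on 21673 genes, of which 203 were higher and 148 lower in *mettl4-1* at the study's thresholds of a 1.5-fold change and an unadjusted p under 0.05. With the organelle genes removed before normalization, the split was 128 higher and 155 lower. An exact permutation test of 1 gene could not go below a two-sided p of 0.333 with 2 libraries against 2, and all p-values therefore rest on edgeR's model across genes.

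Of the activators, *ABI3* was lower in *mettl4-1* and was the 1 gene of the 10 that passed the thresholds. The repressors *VAL1*, *VAL2* and *PKL* were well expressed and lay within a few percent of Col-0. *LEC1* had no count in any library, and *FUS3*, *LEC2*, *ABI4* and *DOG1* had 9 counts or fewer in every library. Of the 10 genes, 5 passed edgeR's filter on low counts and were tested (*ABI3*, *ABI5*, *VAL1*, *VAL2* and *PKL*). Over all tested genes, 1.62% were called at these thresholds, 0.937% as higher and 0.683% as lower, while 0.637% were called when the adjusted p had to be under 0.05, 0.323% as lower. *ABI3* passed the filter through its Col-0 libraries, and it was also called in the fit without a filter (log2 fold change −2.93, adjusted p = 0.00198, edgeR). RNA of whole seedlings cannot tell fewer cells that express a gene from less RNA per cell.

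**Figure D1:**
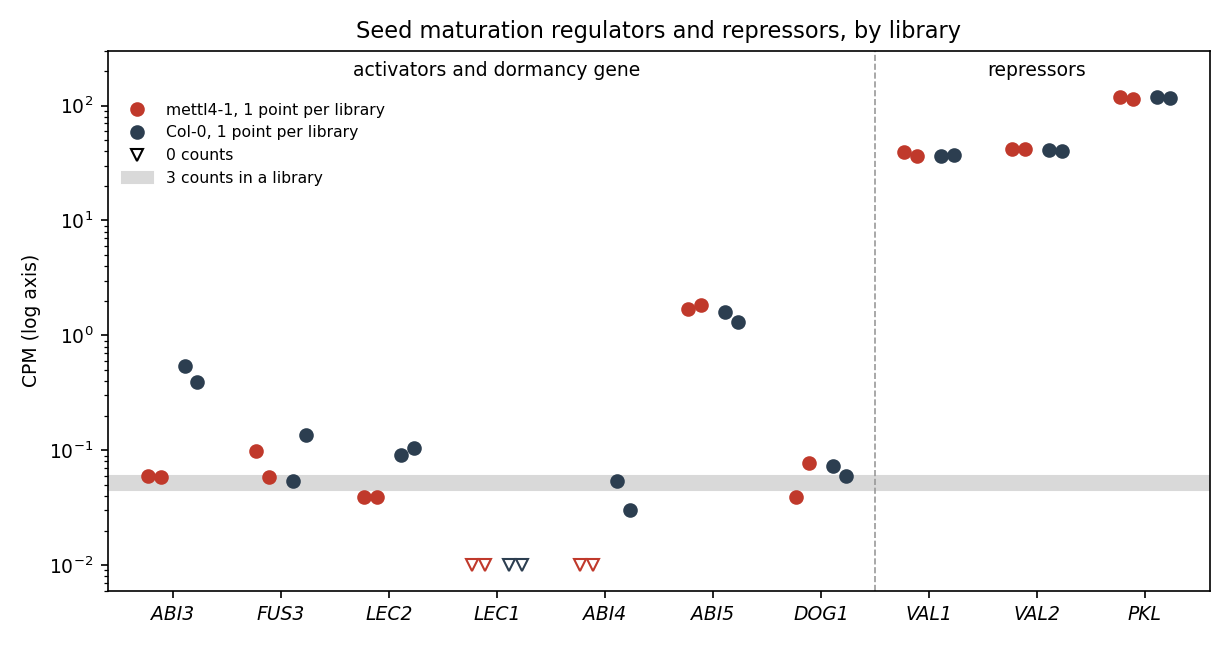
Expression of the 10 genes in CPM on a log axis, with 1 point per library, *mettl4-1* in red left of Col-0 in dark blue. Open triangles mark libraries with 0 counts (drawn at an arbitrary low position), and the grey band marks 3 counts in a library; the *ABI3* points of *mettl4-1* lie at this band, at 0.0583 and 0.0593 CPM, below both Col-0 points at 0.390 and 0.545 CPM.

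*ABI3* (AT3G24650) occupies bases 8997370 to 9001185 of chromosome 3 (TAIR10.1, plus strand), with 6 exons of 3109 bases in all. It had 3 and 3 counts in *mettl4-1* and 30 and 26 counts in Col-0. These counts correspond to 0.0588 ± 0.000744 CPM in *mettl4-1* and 0.468 ± 0.110 CPM in Col-0 (SD, n = 2 each). Both *mettl4-1* libraries were at the floor and both Col-0 libraries well above it, so the genotypes did not overlap. Had *mettl4-1* kept the Col-0 level, at least 23.7 counts would have been seen per library. The ratio of the summed counts, scaled to library size, was 0.128 (95% interval 0.0450 to 0.296, counting error only). The log2 fold change was −2.93 (standard error 0.48, 95% interval −4.00 to −1.86, adjusted p = 0.00965, edgeR with p-values adjusted over all tested genes by Benjamini-Hochberg). The adjusted p lay between 0.00118 and 0.0548 over the alternatives that gave one. The highest came without Col-0 replicate 1, where the log2 fold change was −2.69 and the adjusted p no longer passed 0.05. DESeq2's Wald test gave a log2 fold change of −2.99 and an unadjusted p = 0.000581, with no adjusted p because of its own filter on low counts.

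At this level of Col-0 counts, lower calls were more frequent than over all genes. Among the 946 tested genes with 40 to 80 Col-0 counts in the 2 libraries together, 45 (4.76%) were called lower, and 8, with *ABI3* itself among them, had a log2 fold change of −2.93 or below. The set was chosen by Col-0 counts alone, a choice that itself favours lower calls. The neighbours of *ABI3* were not called. Of the 3 tested genes on each side of it, 0 of 6 were called, with log2 fold changes of −0.12 to 0.20. No annotated gene overlaps *ABI3*, and its exons had no match elsewhere in the nuclear genome at megablast settings, so no other B3 gene had a near-identical stretch there. Over the 4 libraries, the profiles nearest to that of *ABI3* among the other 21672 tested genes were those of the LEA gene AT5G44310 (distance 0.159), of AT1G04560, annotated as an AWPM-19-like protein (distance 0.415), and of *METTL4* itself (distance 0.447). The distance is Euclidean, between centred log2 CPM profiles. With 2 libraries per genotype it mainly picks genes with a log2 fold change like that of *ABI3* (−2.93). Those of the 3 genes were −2.89, −2.66 and −2.99 in this order. Such likeness does not show shared regulation, which was not tested. AT5G44310 had 2 and 2 counts in *mettl4-1* and 21 and 16 in Col-0, and AT1G04560 had 4 and 5 counts in *mettl4-1* and 32 and 37 in Col-0.

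The other B3 activators gave too few counts for the test. *LEC2* (AT1G28300, chromosome 1, 9896867 to 9899876), which can switch on storage genes when expressed in leaves, had 2 and 2 counts in *mettl4-1* and 5 and 7 in Col-0. The *mettl4-1* libraries were thus the lower ones, but the ratio of 0.397 had a 95% counting interval of 0.0934 to 1.31, which includes equal levels. *FUS3* (AT3G26790, chromosome 3, 9853828 to 9856212), a regulator of both maturation and leaf identity, had 5 and 3 counts in *mettl4-1* and 3 and 9 in Col-0. Its genotypes overlapped, and the ratio was 0.794 (0.282 to 2.11). *LEC1* (AT1G21970, chromosome 1, 7727577 to 7729649) was at 0 in all 4 libraries. A sum of 0 allows up to 3.69 counts per genotype by the exact Poisson interval, so a difference in *LEC1* was not detectable at this depth.

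Neither of the ABA-response factors was called. *ABI5* (AT2G36270, chromosome 2, 15204659 to 15207636), which acts after *ABI3* in seeds and arrests growth of young seedlings under ABA, had 85 and 95 counts in *mettl4-1* and 87 and 87 counts in Col-0. In CPM these are 1.76 ± 0.116 in *mettl4-1* and 1.44 ± 0.195 in Col-0 (SD, n = 2 each). Both *mettl4-1* values were the higher ones, by a margin smaller than the spread within Col-0. The log2 fold change of 0.30 (95% interval −0.08 to 0.68) did not pass (adjusted p = 0.466, edgeR), and a fall of *ABI5* to the extent seen for *ABI3* lies outside this interval. *ABI4* (AT2G40220, chromosome 2, 16796247 to 16797585) had 0 and 0 counts in *mettl4-1* and 3 and 2 in Col-0. With 5 Col-0 counts in all, the ratio could be as high as 1.30, so equal levels were within the counting interval.

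*DOG1* (AT5G45830, chromosome 5, 18589418 to 18591506), the main gene of natural variation in seed dormancy, had 2 and 4 counts in *mettl4-1* and 4 and 4 in Col-0. The genotypes overlapped, with a ratio of 0.894 (95% counting interval 0.256 to 2.94). In a fit without a filter on low counts, *LEC2*, *ABI4*, *FUS3* and *DOG1* had adjusted p-values of 0.648, 0.497, 0.910 and 0.970 (edgeR). None of them passed there.

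The repressors carried most of the RNA of the 10 genes. *VAL1* (AT2G30470, listed by RefSeq as *HSI2*, chromosome 2, 12980428 to 12985277) had 1985 and 1874 counts in *mettl4-1* and 1992 and 2459 counts in Col-0. Scaled to library size, these are 37.8 ± 2.02 CPM in *mettl4-1* and 36.6 ± 0.493 CPM in Col-0 (SD, n = 2 each). The genotypes overlapped. The log2 fold change was 0.05 (95% interval −0.05 to 0.14, adjusted p = 0.662, edgeR). *VAL2* (AT4G32010, listed as *HSL1*, chromosome 4, 15479379 to 15485354), its close relative, had 2136 and 2177 counts in *mettl4-1* and 2236 and 2683 in Col-0. Its levels were 42.3 ± 0.0337 CPM in *mettl4-1* and 40.5 ± 0.266 CPM in Col-0 (SD, n = 2 each). The *mettl4-1* values were the higher ones, but the log2 fold change of 0.06 (95% interval −0.01 to 0.14) did not pass (adjusted p = 0.413, edgeR).

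*PKL* (AT2G25170, chromosome 2, 10713807 to 10724106) had 6029 and 5818 counts in *mettl4-1* and 6480 and 7759 counts in Col-0. Its levels of 116 ± 4.39 CPM in *mettl4-1* and 117 ± 0.945 CPM in Col-0 (SD, n = 2 each) overlapped. The log2 fold change was −0.01 (95% interval −0.09 to 0.06, adjusted p = 0.904, edgeR). The upper and lower bounds of all 3 repressors thus stayed within 1.5-fold of Col-0. A microRNA gene and 3 genes on the other strand are annotated across parts of *PKL* and *VAL2*, over 522 bases at most, and the study's text does not say how reads of overlapping genes were assigned.

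**Figure D2:**
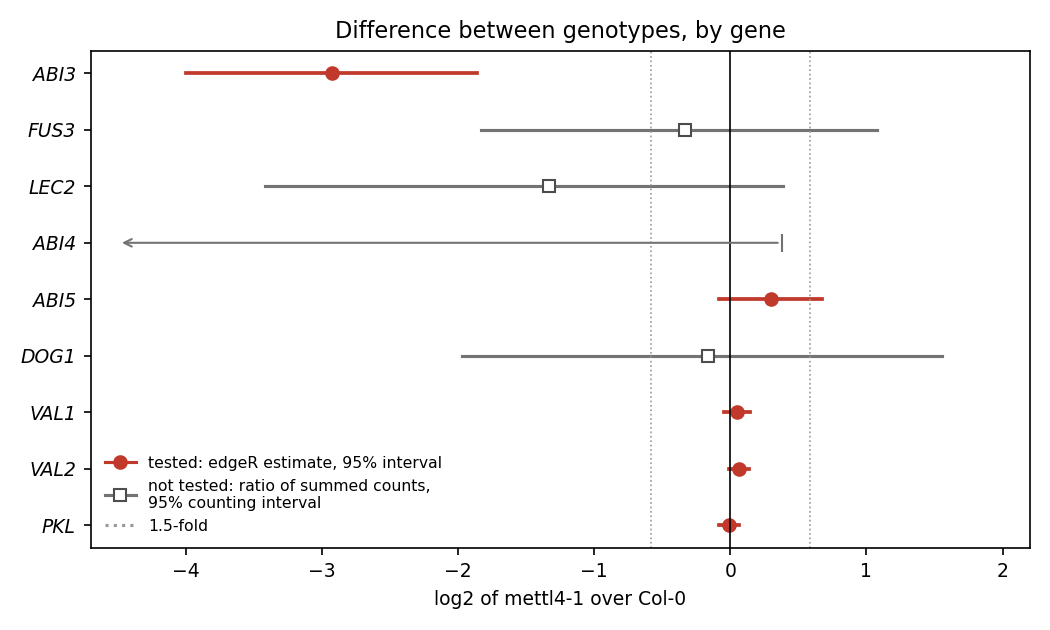
Log2 of *mettl4-1* over Col-0 for 9 of the 10 genes (*LEC1* had no counts). Red points and bars are edgeR estimates with 95% intervals for the 5 tested genes, open squares with grey bars are ratios of summed counts with 95% counting intervals for genes not tested, the *ABI4* arrow runs left from its upper bound, and dotted lines mark 1.5-fold; the interval of *ABI3* lies wholly below −1.86, and those of *VAL1*, *VAL2* and *PKL* are narrow around 0.

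Levels were compared between genes per length, as RPKM (CPM per kilobase of exon). In Col-0, *PKL* was highest at 25.4 ± 0.205 RPKM, followed by *VAL2* at 10.8 ± 0.0708 and *VAL1* at 10.7 ± 0.145, which did not differ beyond their spread (SD, n = 2 each). *ABI5* followed at 0.685 ± 0.0925 RPKM and *ABI3* at 0.150 ± 0.0353 RPKM. *LEC2* (0.0744), *FUS3* (0.0592), *DOG1* (0.0383) and *ABI4* (0.0316 RPKM) rest on few counts. With 9 counts or fewer per Col-0 library, no order is read among them. In *mettl4-1* the upper part of the order was the same, with *PKL* at 25.2 ± 0.953 RPKM, *VAL2* at 11.2 ± 0.00895, *VAL1* at 11.1 ± 0.593 and *ABI5* at 0.836 ± 0.0551 (SD, n = 2 each). *ABI3* there stood at 0.0189 ± 0.000239 RPKM, beside 0.0490 ± 0.0179 for *FUS3*, 0.0338 ± 0.0155 for *DOG1* and 0.0298 ± 0.000376 for *LEC2* (SD, n = 2 each). These values rest on 2 to 5 counts per library, and no order is read from them.

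Of the 30 tested genes of storage proteins, oil bodies and late embryogenesis, 22 were called lower in *mettl4-1* and 8 were not called. The lists were written with earlier results of these data known, so their direction is not independent evidence. All 14 storage protein and oleosin genes were tested and all 14 were called lower, against 0.683% of all tested genes, and 14 also passed with the adjusted p. Of the 14, 7 had 3 counts or fewer in both *mettl4-1* libraries. These passed the filter on low counts through Col-0 and could be called only as lower. The oleosin genes *OLEO3* (6 and 3 counts in *mettl4-1*) and *OLEO1* (11 and 9) also needed Col-0 libraries to pass it. The median log2 fold change of the 14 was −6.14, beside 0.0015 over all tested genes. It was −4.60 with the genes that had no *mettl4-1* count set at their bound. *CRU3* and *CRA1*, which encode 12S cruciferins, had 30 and 37 counts in *mettl4-1* against 1268 and 1534 in Col-0, and 116 and 101 counts in *mettl4-1* against 1201 and 1443 in Col-0. *SESA3*, a gene of the 2S albumins, had 0 and 0 counts in *mettl4-1* and 544 and 660 in Col-0, at least 168-fold lower against a floor of 3 counts per library. The albumin genes *SESA1* to *SESA5* and the cruciferin gene *CRU2* had 3 counts or fewer in each *mettl4-1* library. The oleosin gene *OLEO1* had 11 and 9 counts in *mettl4-1* and 328 and 338 in Col-0. The oleosin genes *OLEO2* and *OLEO3* had log2 fold changes of −3.78 and −3.67. AT3G01570 had 44 and 52 counts in *mettl4-1* and 151 and 173 in Col-0, and AT1G03890 had no count in *mettl4-1* and 41 and 47 in Col-0. The smallest change of the list was in *OLEO4*, with 82 and 94 counts in *mettl4-1* and 154 and 204 in Col-0 (log2 fold change −0.77, adjusted p = 0.0176, edgeR).

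LEA and other late maturation genes were divided. Of 20 listed, 16 were tested, 8 were called lower and 0 higher, and 6 passed with the adjusted p. Over all tested genes, 0.683% were called lower. Of the 8, 4 had 3 counts or fewer in both *mettl4-1* libraries. These passed the filter on low counts through Col-0 and could be called only as lower. AT4G21020 (4 and 6 counts in *mettl4-1*), *ECP63* (6 and 7) and AT3G15670 (13 and 5) also needed Col-0 libraries to pass it. Of the 8, only *PER1* had 10 counts or more in both *mettl4-1* libraries. The median log2 fold change of the 16 was −0.78, beside 0.0015 over all genes. *PER1*, a seed peroxiredoxin, had 14 and 17 counts in *mettl4-1* and 74 and 97 in Col-0 (log2 fold change −2.20, adjusted p = 0.000863, edgeR). *EM1*, a group 1 LEA gene, had 2 and 1 counts in *mettl4-1* and 19 and 35 in Col-0 (log2 fold change −3.81, adjusted p = 0.00728, edgeR). The dehydrin gene *LEA* (AT2G21490), AT5G44310, AT4G21020 and AT3G15670 were also lower, with log2 fold changes of −4.25 to −1.87. *ECP63* and *AtLEA4-1* passed on the unadjusted p alone (adjusted p = 0.256 and 0.127, edgeR). *ECP63* was no longer called without Col-0 replicate 2 or without either *mettl4-1* library, and *AtLEA4-1* without *mettl4-1* replicate 1. *RAB18*, *LEA4-5* and AT2G42560, which had the smallest p-values of those not called, had log2 fold changes of −0.12, 0.32 and 0.57. *RAB18*, a dehydrin that responds to ABA and drought also outside seeds, was by far the most abundant of the list, at 46.2 ± 3.61 CPM in *mettl4-1* and 50.3 ± 1.52 CPM in Col-0 (SD, n = 2 each). *LEA7*, the next, had 114 and 99 counts in *mettl4-1* and 83 and 148 in Col-0.

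The RY element was searched in the promoters, because the B3 domains of *ABI3*, *FUS3*, *LEC2*, *VAL1* and *VAL2* recognize it. The letters CATGCA were looked for on both strands from 250 bases before to 50 bases after the annotated start of each gene in the RefSeq annotation of TAIR10.1, and overlapping matches were counted separately. Of 27443 protein-coding promoters, 9.72% held at least 1 match and 1.94% held 2 or more. Of the 14 storage protein and oleosin genes, 13 did (92.9%), with *CRU2* as the exception, and 10 held 2 or more. Of the 20 LEA and late maturation genes, 7 held a match. Among the 16 of them that were tested, 4 of the 5 with a match and 4 of the 11 without one were called lower. With the adjusted p these were 2 of 5 and 4 of 11, so the split between them rests on *ECP63* and *AtLEA4-1*. The G-box, CACGTG, which bZIP factors such as ABI5 can bind, was in 7.68% of all promoters, in 7 of the 14 storage protein and oleosin genes and in 13 of the 20 LEA and late maturation genes. These matches are letters in a window and do not show binding. The storage protein and oleosin genes were listed as genes downstream of the regulators, so their share of RY matches is not independent evidence.

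In the promoters of all 5 albumin genes, a G-box was followed by an RY match after 5 bases, at nearly the same distance from the start. They are shown as the pair that a whole gene family shares. These 5 genes had 3 counts or fewer in each *mettl4-1* library, as did *CRU2*, which held neither motif, and AT1G03890, which held an RY match and no G-box. *OLEO1*, with 11 and 9 counts in *mettl4-1*, held both motifs 9 bases apart. Capitals mark the G-box and the RY letters, and each sequence reads 5′ to 3′ along the gene's own strand (RefSeq, TAIR10.1).
*SESA1*, chr4:13607259-13607284, plus strand: tcttaCACGTGaactcCATGCAagtc
*SESA2*, chr4:13609271-13609296, plus strand: tcttaCACGTGatcgcCATGCAatct
*SESA3*, chr4:13611724-13611749, plus strand: tcttaCACGTGattgcCATGCAaatc
*SESA4*, chr4:13613524-13613549, plus strand: tctaaCACGTGatctcCATGCAaaac
*SESA5*, chr5:22239235-22239260, minus strand: tattaCACGTGaatgcCATGCAaatg
The G-box began 65, 65, 67, 67 and 68 bases before the start of the 5 genes in this order, and the RY letters 54, 54, 56, 56 and 57 bases before it. *CRU3* and *CRA1* held RY letters without a G-box in the window, shown here for the cruciferins with the most Col-0 counts.
*CRU3*, chr4:14087480-14087499, plus strand: aagtcccCATGCAaacctaa
*CRA1*, chr5:17758488-17758507, minus strand: aataagcCATGCAaattgaa

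**Figure D3:**
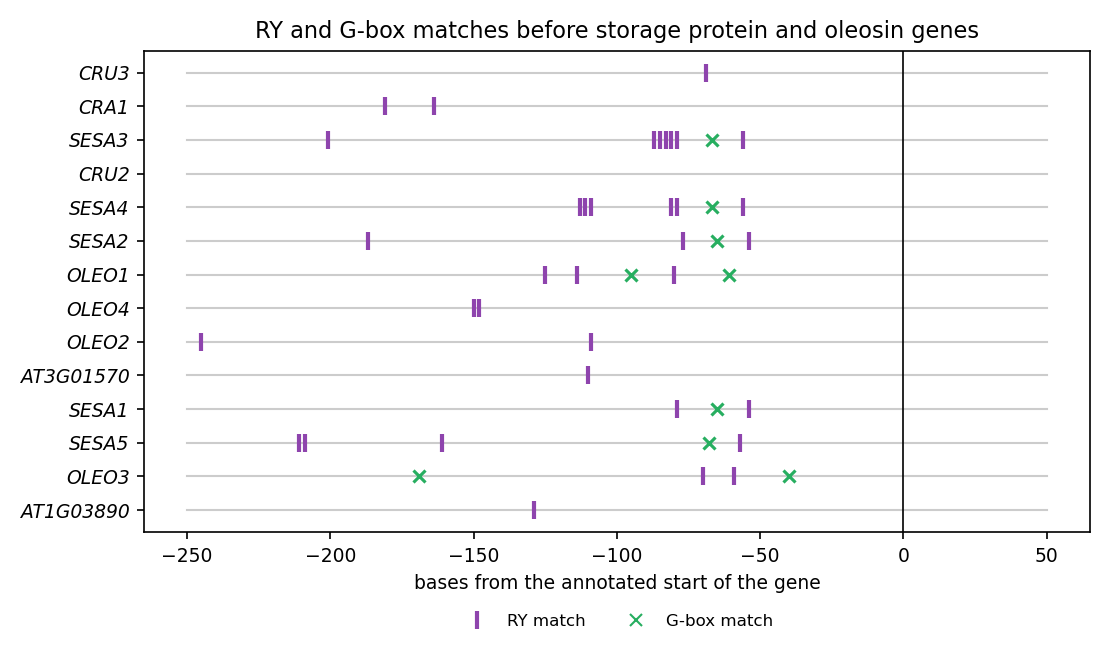
Positions of RY matches (purple bars) and G-box matches (green crosses) in the promoter windows of the 14 storage protein and oleosin genes, in bases from the annotated start of the gene, ordered from the top by Col-0 counts. RY matches occur in 13 of the 14 windows, and in the 5 albumin genes a G-box 65 to 68 bases before the start is followed by an RY match.

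Among the 10 regulators and repressors, the promoters of *FUS3*, *LEC1* and *VAL1* held RY matches, 1, 2 and 4 of them, counting overlaps. Those of *VAL1* include a run in which the letters repeat on both strands. *ABI5* held 3 G-box matches. *ABI3*, the gene that was lower, held neither motif in its window. The RY letters of *FUS3* and 1 of those of *VAL1* are shown as the members' own copies of the element.
*FUS3*, chr3:9856225-9856244, minus strand: tgttcacCATGCAcaatcca
*VAL1*, chr2:12985496-12985515, minus strand: ttagtgtCATGCAtgcactc

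Of 14 other activators of maturation listed, 9 were tested and 0 were called, beside 1.62% of all tested genes. Their log2 fold changes were −0.11 to 0.21 (edgeR), and DESeq2's Wald test also called 0. An unadjusted p under 0.05 was found for 2 of the 9, beside 3301 of all 21673 tested genes (edgeR). The 2 are *BZIP25*, a bZIP partner of ABI3 on storage gene promoters, with 2334 and 2386 counts in *mettl4-1* and 2696 and 3393 in Col-0, and *WRI1*, the regulator of seed oil synthesis, with 10.2 ± 0.628 CPM in *mettl4-1* and 8.85 ± 0.416 CPM in Col-0 (SD, n = 2 each). *BZIP53*, a further bZIP partner, had a log2 fold change of 0.06. The seed-specific factors of the list were close to absent. *MYB115* and *MYB118* were at 0 in all libraries and *HSFA9* had 1 count in all. The LEC1 relative *NF-YB6* (also called *L1L*), which did not pass the filter, had 7 and 3 counts in *mettl4-1* and 15 and 11 in Col-0. Its ratio was 0.458 (95% counting interval 0.197 to 0.982), which lies below equal levels on counting error alone.

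Of the other repressors, all 20 listed were tested and 2 were called, both lower, of which 1 passed with the adjusted p. Over all tested genes, 0.683% were called lower. *RING1A*, an E3 ubiquitin ligase of Polycomb repressive complex 1, had 485 and 506 counts in *mettl4-1* and 7045 and 8496 in Col-0 (log2 fold change −3.72, standard error 0.03, adjusted p = 1.4e-13, edgeR). Its paralog *RING1B* had 8.72 ± 0.167 CPM in *mettl4-1* and 7.42 ± 0.696 CPM in Col-0 (SD, n = 2 each), a log2 fold change of 0.23 that did not pass. *PKR2* (AT4G31900), a relative of *PKL* best known from seeds, had 4 and 0 counts in *mettl4-1* and 18 and 16 in Col-0. Its log2 fold change was −2.77 with an adjusted p = 0.0839 (edgeR), so that it passed on the unadjusted p alone. *PKR2* passed the filter on low counts through its Col-0 libraries. The other 18, among them *VAL3* and *ASIL2* with log2 fold changes of 0.22 and 0.09, the PRC2 genes *CLF*, *SWN*, *EMF2*, *VRN2*, *FIE* and *MSI1*, and the *PKL* relative *CHR4*, lay between −0.06 and 0.23.

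**Figure D4:**
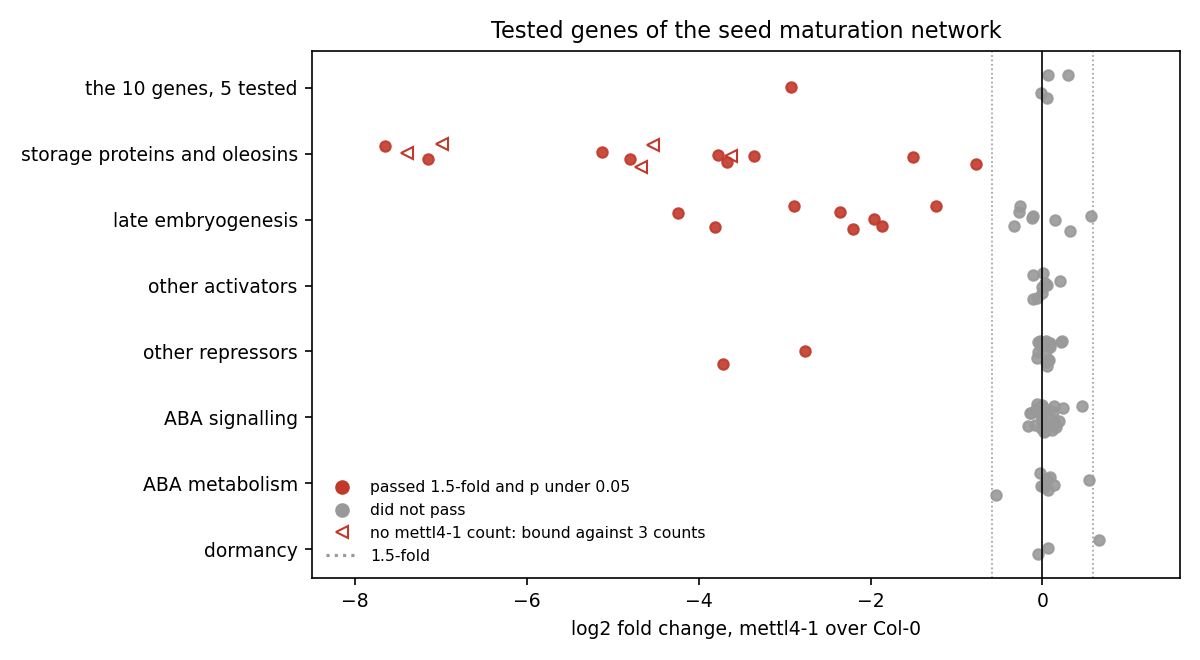
Log2 fold change, *mettl4-1* over Col-0, of every tested gene of the network, with 1 point per gene and 1 line of points per list (vertical scatter has no meaning). Red points passed 1.5-fold and an unadjusted p under 0.05, grey points did not, and open triangles are genes with no *mettl4-1* count, drawn at their bound against 3 counts per library; called genes are 14 storage protein and oleosin genes, 8 late embryogenesis genes, *RING1A*, *PKR2* and *ABI3*.

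Genes of ABA signalling and metabolism were not called. Of 31 signalling genes, 30 were tested and 0 passed the thresholds (7 at an unadjusted p under 0.05, 0 by DESeq2's Wald test), with a median log2 fold change of 0.005. The receptor gene *PYL4* was 73.4 ± 1.66 CPM in *mettl4-1* and 80.6 ± 2.26 CPM in Col-0 (SD, n = 2 each). Its adjusted p was 0.0490 (edgeR), at a log2 fold change of −0.14, under the 1.5-fold threshold. *KEG*, which encodes an E3 ligase that degrades ABI5, and the kinase gene *SNRK2.2* had log2 fold changes of 0.12 and −0.08. Of 12 genes of ABA synthesis and breakdown, 10 were tested and 0 passed (2 at an unadjusted p under 0.05, 0 by DESeq2's Wald test). *CYP707A4*, an ABA 8′-hydroxylase gene, had 91 and 98 counts in *mettl4-1* and 75 and 79 in Col-0, a log2 fold change of 0.54 just under the fold threshold. It was called without Col-0 replicate 1 and without *mettl4-1* replicate 1. *CYP707A2* and *ABA1* had log2 fold changes of 0.14 and 0.07. Of 8 dormancy genes, 3 were tested and 0 passed (0 at an unadjusted p under 0.05, 0 by DESeq2's Wald test), *HUB1*, *HUB2* and the DOG1-like gene AT4G18650, at −0.05, 0.07 and 0.66. Over all 85 genes of the lists of activators, repressors, ABA and dormancy genes, 72 were tested. Of these, 14 had an unadjusted p under 0.05, beside 3301 of all 21673 tested genes (edgeR). Of the 72, 2 were called, beside 1.62% of all tested genes. The count was 4 without Col-0 replicate 1 (with *CYP707A4* and AT4G18650) and 5 without *mettl4-1* replicate 1 (with *CYP707A4*, *HAI2* and *NF-YB6*).

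Markers of seed tissues and flowers were measured in the same libraries. The 4 embryo markers summed to 1.29 and 1.32 CPM in *mettl4-1* and 1.56 and 1.53 CPM in Col-0, and most of this was *WOX2*, with 55 and 59 counts in *mettl4-1* and 71 and 86 in Col-0 (log2 fold change −0.21, not called). *WOX8* was at 0 in all libraries. The 5 endosperm markers summed to 0.771 and 1.11 CPM in *mettl4-1* and 1.02 and 0.886 CPM in Col-0, with *FIS2* at 0 throughout. The seed coat markers summed to 4.39 and 4.84 CPM in *mettl4-1* and 4.44 and 4.32 CPM in Col-0, nearly all of it *TTG2*, which is also a gene of leaf hairs. The 34 storage, oil body and LEA genes together summed to 55.8 and 60.6 CPM in *mettl4-1* and 155 and 153 CPM in Col-0. Of this, *RAB18* held 46.2 CPM in *mettl4-1* and 50.3 CPM in Col-0 (means, n = 2 each). The 14 storage protein and oleosin genes alone summed to 5.97 and 6.06 CPM in *mettl4-1* and 95.3 and 93.7 CPM in Col-0. The embryo sums were lower in both *mettl4-1* libraries, and the endosperm and seed coat sums overlapped between the genotypes. Of the 4 embryo, 5 endosperm and 3 seed coat markers, only 1 of each passed the filter on low counts. These were *WOX2*, *AGL62* and *TTG2*, and none was called. The others could not be called, so their levels were not compared by a test. Of the 4 flower markers, *PI* was called higher, with 42 and 50 counts in *mettl4-1* and 25 and 37 in Col-0 (log2 fold change 0.82, adjusted p = 0.123, edgeR). *AP3*, *AG* and *SEP3* were not called, at log2 fold changes of 0.52, 0.39 and −0.20. Over all tested genes, 0.937% were called higher. The part of seed-derived material in the difference of *ABI3* was not tested.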

How the data were processed

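RNA-seq libraries of whole seedlings were analysed, 2 of *mettl4-1* and 2 of Col-0. The authors trimmed reads with Cutadapt 3.5, mapped them to TAIR10 with Hisat2 2.2.1, filtered them on mapping quality with SAMtools 1.13, and deposited raw counts per gene from FeatureCounts 2.0.1. The counting settings for strand, multi-mapping and overlap are not given in the sources used here, which matters for overlapping genes. The deposited values of *mettl4-1* replicate 2 carry the name of another allele, and the sample labels were followed.

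Counts were tested in R 4.3.3 with edgeR 4.0.16 (TMM factors, filterByExpr at 10 counts, quasi-likelihood fit and test, genotype as the only term), with Benjamini-Hochberg adjustment over all 21673 tested genes. Standard errors come from the F statistic. Genes not tested have exact Poisson or binomial intervals at 95%, which cover counting error only. Likeness of profiles used log2 CPM with a pseudocount of 0.00894. Names, positions and promoters come from RefSeq TAIR10.1, whose nuclear loci were matched to the files by identifier. The steps were tested on simulated counts.

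The members and gene lists were chosen with earlier results of these data known. Named were the 10 members, *METTL4*, each called gene of a list with up to 3 others of smallest p, the 3 genes of each seed list with most Col-0 counts, and the 3 profiles nearest to a called member. Further genes were named after their values were seen (*NF-YB6*, *RING1A*'s and *PKL*'s relatives, *HAI2*, *MYB115*, *MYB118*, *HSFA9* and tissue markers). Alternatives were DESeq2 1.42.0 (size factors, Wald test), limma 3.58.1 (voom), other filters and thresholds, a replicate block, a prior count of 2, removal of organelle genes, and each library left out in turn.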

Additional observations from a re-analysis of the deposited data

How the results depend on the processing

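The call of *ABI3* held under 13 of the 14 alternatives counted. When genes below 10 counts in any library were dropped, *ABI3* was not tested and 0 of the 10 genes were called. Its log2 fold change ranged from −3.16 to −2.40, the smallest with a prior count of 2. *ABI5* ranged from 0.16 to 0.43, *VAL2* from 0.06 to 0.07, *VAL1* from −0.01 to 0.10 and *PKL* from −0.05 to 0.03, and none of these was called under any alternative; the signs of *VAL1* and *PKL* changed with the library left out. In place of 351 calls over all genes, DESeq2's Wald test gave 223, an adjusted p under 0.05 gave 138, a 2-fold threshold 214 and no fold threshold 3301, and leaving out a library gave 361 to 442. Of the seed storage, oil body and late embryogenesis genes, 22 were called, 6 with at least 10 counts in every library, because 16 were then no longer tested, and 20 to 22 with a library left out. Of the other network genes, 2 were called, 1 with at least 10 counts in every library, 1 with the adjusted p, 14 without a fold threshold and 2 to 5 with a library left out. With a replicate block, 329 genes were called in place of 351, and the calls among the 10 genes and the lists were the same genes. Deviations of same-numbered libraries correlated at −0.018, which shows no strong pairing by number. With 2 libraries per genotype, a weak shared batch could go unseen. Depth limits *LEC1*, *LEC2*, *FUS3*, *ABI4* and *DOG1*, for which only large differences could have been seen.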
